A study of Mus musculus with 2 samples.

Results

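This report concerns 10 genes whose proteins lie at the surface of endothelial cells, the cells that line blood vessels: Pecam1, Eng, Mcam, Cav1, Emcn, Cd34, Esam, Icam2, Ecscr and Cd93. They were taken by symbol from the 24354 genes of the deposited table, and all 10 were listed there. The selection used the same contrast that is described here, because Pecam1 and Eng had been seen to be higher against other endothelial genes, so the directions of the members are a description and support nothing by themselves. RNA came from mouse ESCs (embryonic stem cells) differentiated through embryoid bodies (EBs), in 1 library of Diff–CONT ESCs and 1 library of Diff–iKO ESCs, 2 libraries in all. The paper describes the control line as carrying the floxed Ino80 allele without Cre and the knockout line as carrying the same allele with ROSA26-CreER, a tamoxifen-activated Cre expressed from a widely active locus, while the sample labels call the control genotype WT. Both cultures attached on day 4 of EB formation and then spent 7 days in serum medium with BMP4, a mesoderm-inducing growth factor, and 0.5 µM 4-OHTM, the tamoxifen metabolite that activates CreER. The EBs mix many cell types, and nothing in the labels says that endothelial cells were purified. With 1 library per condition there is no replicate check and no p-value is possible.

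An endothelial cell is recognised by a set of surface proteins that hold it to its neighbours, sense flow and growth factors, and admit or repel blood cells. Most proteins of this set do not belong to endothelium alone, and for Ecscr no other cell type is named here. Pecam1 is also a surface marker of the inner cell mass and of mouse ESCs, and endoglin (Eng) is also found on trophoblast of the placenta and on mesenchymal cells. Mcam is known from trophoblast, pericytes and smooth muscle, and Cav1 from fibroblasts, fat cells and smooth muscle. Cd34, Cd93, Emcn, Esam and Icam2 are shared with blood cells, among them haematopoietic progenitors, leukocytes or platelets. The cell types named here are examples and not full lists for any gene, so they do not sort the genes by direction. Which cells of these cultures made each transcript cannot be read from bulk RNA, and fewer cells of a type and less RNA per cell cannot be told apart.

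Promoter windows of RefSeq (GRCm38.p6, 250 bases before to 50 after a gene's start, 300 in all) were held for 5 of the 10 genes, in 6 windows. RefSeq's starts are used for the windows and GENCODE's for the gene positions given further on, and the 2 can differ, as for Mcam. They are shown for a pair of genes that were higher (Eng, Mcam) and a pair that were lower (Emcn, Cd34) in the Diff–iKO-labelled library, since the text compares their base composition and ETS letters. ETS factors drive many endothelial genes, and capitals mark their core GGAA, or TTCC on the other strand. The windows are Eng at chr2:32646345-32646644, Mcam at chr9:44134408-44134707, Emcn at chr3:137340828-137341127 and Cd34 at chr1:194938571-194938870, all on the plus strand and written 5′ to 3′.
Eng: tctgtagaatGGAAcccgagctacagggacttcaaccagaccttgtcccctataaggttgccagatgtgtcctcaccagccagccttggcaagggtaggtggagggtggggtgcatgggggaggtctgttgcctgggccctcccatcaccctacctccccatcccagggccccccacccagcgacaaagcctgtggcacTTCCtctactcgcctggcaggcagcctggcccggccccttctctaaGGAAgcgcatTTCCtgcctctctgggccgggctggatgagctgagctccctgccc
Mcam: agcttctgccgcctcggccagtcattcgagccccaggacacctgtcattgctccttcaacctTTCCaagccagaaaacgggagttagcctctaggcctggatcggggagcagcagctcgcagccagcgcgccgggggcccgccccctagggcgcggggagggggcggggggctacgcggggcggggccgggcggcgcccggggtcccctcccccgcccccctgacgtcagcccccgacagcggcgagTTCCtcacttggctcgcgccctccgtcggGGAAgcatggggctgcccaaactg
Emcn: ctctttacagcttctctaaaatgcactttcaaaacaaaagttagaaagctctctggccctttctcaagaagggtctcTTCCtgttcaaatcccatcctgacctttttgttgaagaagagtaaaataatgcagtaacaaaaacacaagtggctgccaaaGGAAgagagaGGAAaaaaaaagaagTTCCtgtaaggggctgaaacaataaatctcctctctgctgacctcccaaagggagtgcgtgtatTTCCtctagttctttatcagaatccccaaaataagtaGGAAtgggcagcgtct
Cd34: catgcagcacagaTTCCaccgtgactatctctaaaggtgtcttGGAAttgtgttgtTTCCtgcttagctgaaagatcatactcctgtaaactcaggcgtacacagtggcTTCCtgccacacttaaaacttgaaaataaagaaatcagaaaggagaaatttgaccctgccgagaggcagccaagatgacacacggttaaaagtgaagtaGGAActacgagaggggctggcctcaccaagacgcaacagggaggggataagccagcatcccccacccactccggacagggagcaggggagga
The Mcam window held 29 CpG dinucleotides and was 72.7% G and C, and the Emcn window held 2 CpG and was 41.0% G and C. Eng (6 CpG, 63.3% G and C) and Cd34 (7 CpG, 50%) lay near the median of 7 CpG over the 32851 windows of the table, whose median G and C content was 52.7%. Cav1, which has 2 windows, held 13 and 16 CpG. The core GGAA was present in all 6 windows, as in 96.0% of all windows, with 4 matches in Eng, 3 in Mcam, 3 in each Cav1 window, 6 in Emcn and 5 in Cd34. The longer ETS pattern CNGGAAG, on either strand, matched 1 time in Emcn and 1 time in Cd34 and not in the windows of Eng, Mcam or Cav1, against 31.9% of all windows. Each CNGGAAG or GGAATG match also holds the core GGAA. Both strands were searched for every pattern. The SP/KLF pattern GGGCGG matched 5 times in Mcam and 2 times in the first Cav1 window, and 35.7% of all windows held it. The GATA factor pattern AGATAA, held by 11.2% of all windows, was in 0 of the 6 windows. The octamer ATGCAAAT (1.74% of all windows) was in 0 of them too. The same was true of the CCAAT box (37.4%). TATAAA (13.6% of all windows) matched 1 time in the first Cav1 window, GGAATG (TEAD, 14.7%) 1 time in Emcn, and the E-box CANNTG (72.3%) in each window but that of Cd34. These are descriptions of letters, and no match says only that the letters are not in the window.

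Ino80, the targeted gene, had an FPKM (fragments on a gene, scaled by transcript length and library size) of 8.90 in Diff–CONT against 10.3 in the Diff–iKO-labelled library, a log2 ratio of 0.21. A gene-level FPKM sums all exons and cannot resolve a deleted one, so this value does not check the deletion. The study's PCR genotyping and qRT-PCR of an Ino80 exon were done on undifferentiated ESCs, not on the cultures sequenced here, and are not analysed here. Directions below go by the label. Steps in the low FPKM values gave a depth on genes of about 28200000 fragments for Diff–CONT and 22000000 for the other library. Intervals given for log2 ratios are exact 95% Clopper-Pearson intervals from these fragments, so they hold counting error and say nothing of the spread between cultures. A gene is called past the cut-off when its fold change (FC) is at least 2 and its FPKM at least 2 in at least 1 library.

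All 10 genes reached the FPKM minimum. Of them, 4 were higher past the cut-off in the Diff–iKO-labelled library (Eng, Pecam1, Mcam and Cav1), 5 were lower (Emcn, Ecscr, Cd93, Cd34 and Icam2) and 1 was not past it (Esam). Among the 12376 genes that reached the FPKM minimum, 6.73% were higher and 8.39% were lower past the same cut-off. Because the genes were chosen on this contrast, these shares are printed for scale only. The counts depend on the cut-off. With an FPKM of at least 5 in 1 library 4 genes were higher and 3 lower (5.52% and 6.54% of all genes). With at least 2 in both libraries 4 were higher and 1 lower (4.37% and 5.10%). With an FC of at least 4 the counts were 0 higher and 1 lower (2.25% and 1.92%). The summed FPKM of the 10 genes was 152 in Diff–CONT against 315 in the Diff–iKO-labelled library, and most of both sums was Mcam. The 4 higher genes summed to 118 and 302, and the 5 lower genes to 29.8 and 8.29.

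**Figure D1:**
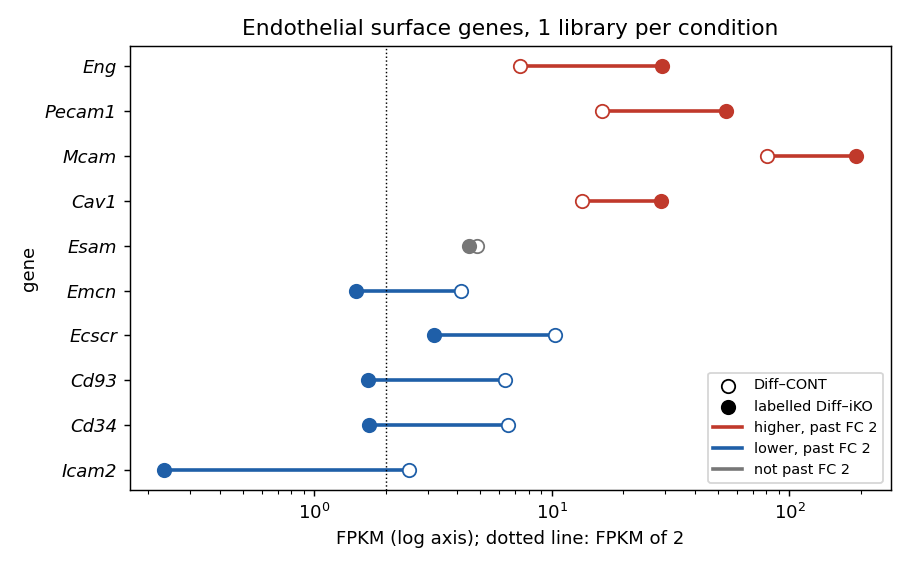
FPKM on a log axis of the 10 endothelial surface genes in the Diff–CONT library (open circles) and the Diff–iKO-labelled library (filled circles), with 1 library each and no error bar; the dotted line marks an FPKM of 2. The 4 red genes move right by 2.14-fold to 3.96-fold, the 5 blue genes move left by 2.77-fold to 10.8-fold, and Esam stays near 4.81 and 4.46.

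The immunoglobulin-type adhesion molecules did not move together. Pecam1, which binds itself across the contacts between cells and recruits phosphatases such as Shp2 through its cytoplasmic tail, lies at chr11:106654217-106750628 of GRCm38. Its FPKM was 16.2 in Diff–CONT against 53.9 in the Diff–iKO-labelled library, a log2 ratio of 1.73 (counting interval 1.64 to 1.82). Mcam (CD146), an adhesion molecule that binds laminin with the alpha 4 chain, lies at chr9:44134469-44142727. It had the highest level of the 10 genes in both libraries, at 80.8 and 190.4 FPKM, that is a log2 ratio of 1.24 (interval 1.19 to 1.28). These genes were thus higher by 3.32-fold and 2.36-fold. Icam2, a ligand of the leukocyte integrin LFA-1, lies at chr11:106377656-106388075, on the same chromosome as Pecam1. Its FPKM was 2.51 in Diff–CONT against 0.233 in the Diff–iKO-labelled library, the lowest level of the 10 genes in both. The log2 ratio of -3.43 had a wide interval (-4.92 to -2.25), because only 6 fragments lay on Icam2 in the Diff–iKO-labelled library, against 82 in the other. Esam, a tight junction protein of endothelium and platelets at chr9:37528078-37538319, had an FPKM of 4.81 and 4.46, a log2 ratio of -0.11 whose interval (-0.40 to 0.18) includes 0. A difference of Esam was not detectable at this depth. Its interval lies within an FC of 2 in either direction for counting error alone, and the spread between cultures was not measured.

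Eng encodes endoglin, a co-receptor for BMP9, BMP10 and TGF-beta that acts beside the type I receptor Alk1 (Acvrl1), and lies at chr2:32646595-32682669. Its FPKM was 7.31 in Diff–CONT against 28.9 in the Diff–iKO-labelled library, the largest fold of the higher genes at 3.96 (log2 ratio 1.98, interval 1.85 to 2.12). The gene overlaps Fpgs on the opposite strand, whose FPKM was 22.7 and 30.9 (log2 ratio 0.44), and the strand setting of the counting is not given in the sources used here. Cav1 encodes caveolin-1, the scaffold of the caveolae that stud the endothelial membrane, and lies at chr6:17306335-17341452. It was 13.4 and 28.8, a log2 ratio of 1.10, and the lower end of its interval (0.98 to 1.22) lies just below the cut-off of 1. Cav1 was therefore the gene nearest to the cut-off from inside, and Esam the only one outside it. Icam2 was nearest to the FPKM minimum of 2, which it reached in Diff–CONT alone, as did Emcn, Cd34 and Cd93.

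The sialomucins were both lower. Cd34, a sialomucin of blood progenitors and small vessels at chr1:194938819-194961279, was at 6.54 and 1.70 FPKM, a log2 ratio of -1.94 (interval -2.29 to -1.60). Emcn, which encodes endomucin, a sialomucin of capillaries and veins that keeps leukocytes from adhering, lies at chr3:137341067-137432185. It was 4.13 and 1.49, with a log2 ratio of -1.47, and its interval of -2.02 to -0.95 extends past the cut-off. That interval uses the shorter RefSeq transcript of Emcn, of 1357 nucleotides, where the longer has 2588. Cd34 overlaps the antisense gene Gm16897, which was close to 0 (FPKM 0.0145 and 0.116).

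Cd93 and Ecscr were lower as well. Cd93 encodes a C-type lectin-like receptor that takes part in the adhesion and migration of endothelial cells, and lies at chr2:148436640-148443563. Its FPKM was 6.34 in Diff–CONT against 1.69 in the Diff–iKO-labelled library (log2 ratio -1.91, interval -2.11 to -1.71). Ecscr, the endothelial cell surface expressed chemotaxis and apoptosis regulator, lies on chromosome 18 from 35713086 to 35722356. It had the highest FPKM of the 5 lower genes, 10.3, and was 3.17 in the Diff–iKO-labelled library (log2 ratio -1.70, interval -2.11 to -1.31). It overlaps 1700066B19Rik on the opposite strand, which was close to 0 (FPKM 0.0575 and 0.0192).

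**Figure D2:**
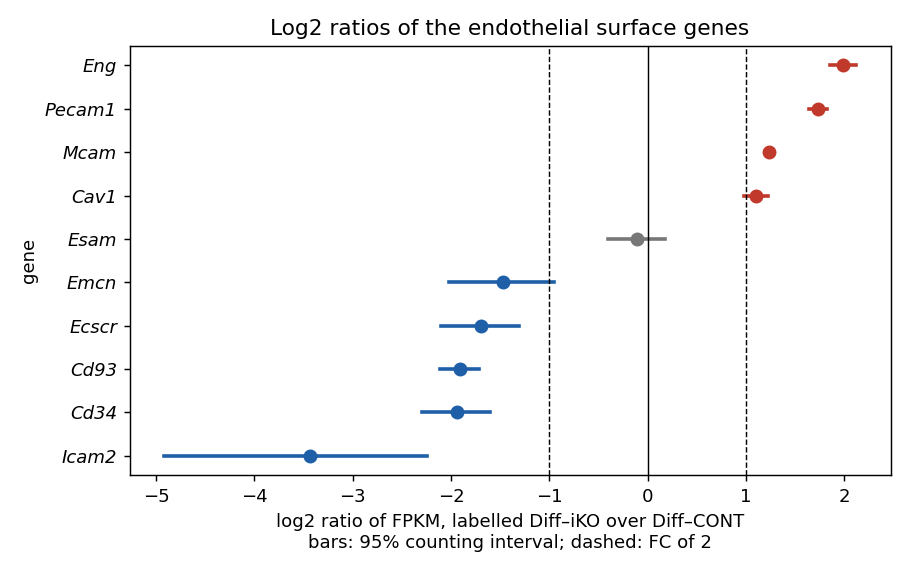
Log2 ratio of FPKM, library labelled Diff–iKO over Diff–CONT, of the 10 genes; horizontal bars are exact 95% counting intervals and dashed lines mark an FC of 2. The intervals of Cav1 (0.98 to 1.22) and Emcn (-2.02 to -0.95) reach the dashed lines, and that of Icam2 is the widest.

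Levels in the Diff–CONT library overlapped between the 4 higher and the 5 lower genes, from an FPKM of 7.31 to 80.8 against 2.51 to 10.3. In the Diff–iKO-labelled library they ran from 28.8 to 190.4 against 0.233 to 3.17, a gap that the choice of genes by direction fixes. In the Diff–CONT library Eng (7.31) lay between Cd34 (6.54) and Ecscr (10.3). Among the 12376 genes that reached the minimum, the Diff–CONT level of Pecam1 was above that of 57.3% of genes, and its level in the Diff–iKO-labelled library was above 87.8%. For Eng these shares were 30.7% and 74.96%, and for Mcam 93.3% and 97.3%. Cd34 went from 27.8% to 4.32%. Gene size did not separate the directions either, with spans of 8.26 to 96.4 kb for the higher and 6.92 to 91.1 kb for the lower genes. The shortest RefSeq transcripts had 2522 to 3021 nucleotides in the higher and 1114 to 6677 in the lower genes. In the Diff–iKO-labelled library 1503 to 11014 fragments lay on the higher genes and 6 to 245 on the lower ones.

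**Figure D3:**
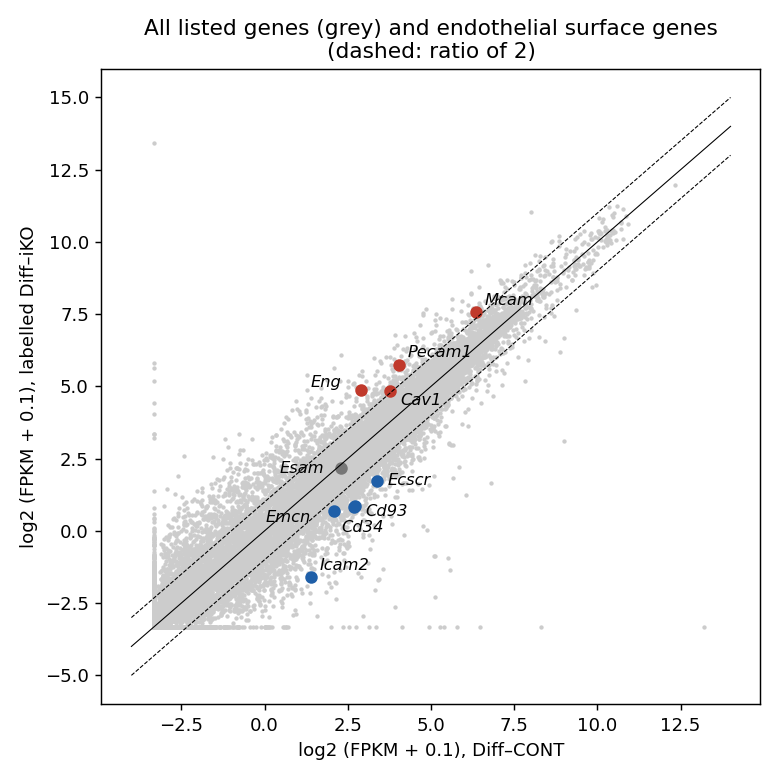
Log2 (FPKM + 0.1) of all 24354 listed genes (grey) in the Diff–CONT library and the Diff–iKO-labelled library, with the 10 endothelial surface genes in colour; the solid line marks equal values and the dashed lines a ratio of 2. Mcam, Pecam1, Eng and Cav1 lie above the band and Icam2 lies farthest below it among the 10.

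Other genes of endothelium, a list of 45 without the 10 members, were next set beside them. Of the 28 that reached the FPKM minimum, 14 were lower and 3 higher past the cut-off, which is 50% and 10.7% against the 8.39% and 6.73% of all genes. Of these 14 lower genes, 11 reached the minimum through Diff–CONT alone, so they passed only through the library where they were high. Among the 13 genes with an FPKM of at least 2 in both libraries, 3 were lower (Cdh5, Ramp2 and the VEGF receptor gene Kdr, at 12.2 and 4.37) and 2 higher (Icam1 and Notch4), where 5.10% and 4.37% of all genes were. The median log2 ratio of the list, with 0.1 added to each FPKM and over its 34 genes that averaged at least 1 FPKM, was -0.88, beside -0.0077 over all 13145 such genes and -0.76 over the 10 members. Both medians depend on the filter. Over genes with a mean FPKM of 5 or more, or with 2 or more in both libraries, that of the members turned to 1.24 or 1.17, and that of the other endothelial genes became -0.34 or -0.49. Cdh5 (VE-cadherin, the adherens junction protein of endothelium) was 10.3 and 4.34, a log2 ratio of -1.24 (interval -1.42 to -1.07). Ramp2, a partner of the adrenomedullin receptor, was 16.7 and 5.05. The transcription factor gene Erg, an ETS factor, was 2.03 and 0.149 on 81 and 4 fragments, and Sox17, a factor of arteries and of endoderm, was 5.36 and 0.317. Icam1 (14.5 and 41.3), a leukocyte adhesion molecule of many activated cell types, and Notch4 (2.50 and 10.2), a Notch receptor of endothelium, were higher past the cut-off, as was Robo4 (1.05 and 2.36), a guidance receptor of vessels. Flt1, a VEGF receptor, was 19.4 and 10.9 and Egfl7, a secreted factor of endothelium, 24.3 and 32.5, neither past the cut-off.

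The 10 genes can be set on the scale of single markers within each library, which needs no scaling between the libraries. Members and reference genes alike were picked with their values known, so these ratios restate the levels above and bear on no source of the transcripts. Per FPKM of Cdh5, Pecam1 was 1.58 in Diff–CONT against 12.4 in the Diff–iKO-labelled library, and Eng was 0.711 and 6.66. Mcam was 7.85 and 43.8 on that scale and Cav1 1.30 and 6.62. The lower genes all had a smaller ratio to Cdh5 in the Diff–iKO-labelled library, and that of Icam2 fell most in proportion. Icam2 was 0.244 and 0.0536 per FPKM of Cdh5, Cd34 was 0.635 and 0.392, Cd93 0.617 and 0.389, Ecscr 1.00 and 0.731 and Emcn 0.402 and 0.343. Esam went the other way, from 0.468 to 1.03. Per FPKM of Pou5f1, the pluripotency factor gene that encodes Oct4, Pecam1 was 0.267 and 0.218 and Eng 0.120 and 0.117. Per FPKM of Pou5f1, Mcam was 1.33 and 0.771, Cav1 0.221 and 0.116, Esam 0.0792 and 0.0181 and Cd34 0.108 and 0.00689.

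Most markers of pluripotent cells were higher in the Diff–iKO-labelled library. Of 24 pluripotency genes, 20 were higher past the cut-off, 1 was lower and 3 were not past it, with a median log2 ratio of 2.16 and a summed FPKM of 743 and 3649. Pou5f1 was 60.8 and 247, Tdgf1 49.8 and 259, and Alpl, the alkaline phosphatase gene of ESCs, 34.7 and 156. Dppa5a was 258 and 2115, and Lin28a (103.5 and 28.6), an RNA-binding protein gene, was the lower one. Gdf3 (4.12 and 49.7) and Nr0b1 (2.32 and 28.9) were higher. Of 24 trophoblast genes that reached the minimum, out of 30, 11 were higher and 3 lower (45.8% and 12.5%, beside 6.73% and 8.39% of all genes), with a median of 0.73, which was 0.29 over the 14 genes with an FPKM of at least 2 in both libraries, and a summed FPKM of 1422 and 1922. Of the 11 higher genes, 7 reached the minimum in the Diff–iKO-labelled library alone. With at least 2 in both libraries 4 of 14 were higher and 1 lower, where 4.37% and 5.10% of all genes were. Most of both sums was Krt18 (522 and 720.5), Krt8 (407 and 575) and Peg10 (290.2 and 283), none past the cut-off, and the keratins also stand in the epithelial list. Prl3b1 and Prl3d1, placental lactogens of trophoblast, were 1.82 and 22.4 and 0.484 and 6.19, and Krt7 39.2 and 86.4. The trophoblast stem cell factors Cdx2 (4.00 and 0.705) and Eomes (5.25 and 1.48) were lower, as was the more abundant Hand1 (70.8 and 31.3). Per FPKM of Prl3b1, Pecam1 was 8.90 and 2.41 and Eng 4.01 and 1.29. Whether pluripotent or trophoblast cells carry the higher Pecam1, Eng, Mcam or Cav1 was not tested.

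Further cell types were looked at by lists, some of which (blood, mural and mesenchymal cells) share surface proteins with endothelium and some of which (endoderm, epithelium) are other cells EBs can hold. Their counts are to be read against 6.73% higher and 8.39% lower among all genes. In the blood and platelet list, 3 of 10 genes that reached the minimum were higher and 5 lower, out of 24 listed, with a median of -0.82 and a summed FPKM of 241 and 90.5. The embryonic globins Hbb-bh1 (88.2) and Hba-x (54.9) were listed at 0 in the Diff–iKO-labelled library, and Hbb-y was 35.04 and 0.102. Ptprc (CD45), the marker of leukocytes, was near 0 in both libraries (FPKM 0.0734 and 0.00893), while Csf1r (2.91 and 12.8) and Cd68 (10.5 and 27.1) were higher. Of 13 mural and smooth muscle genes, out of 16, 2 were higher and 4 lower, with a median of -0.57 and sums of 663 and 915. Rgs5, a pericyte gene, was 13.8 and 1.35, and Abcc9 2.79 and 0.952, while Cnn1 (8.71 and 19.0) and Cspg4 (3.66 and 7.46) were higher. The most abundant mural genes, Tagln (229.7 and 444.9), Acta2 (263 and 337), Notch3 (69.5 and 57.2) and Pdgfrb (39.3 and 26.3), were not past the cut-off. Of 17 mesenchyme and fibroblast genes, out of 18, 1 was higher and 9 lower (median -0.998, sums of 3438 and 3605). Col1a1 (880 and 1199), Fn1 (672 and 1150) and Vim (563 and 560) made up most of both sums and were not past the cut-off. Among the lower ones were Col3a1 (386 and 187), Lum (46.3 and 8.00) and Tcf21 (3.49 and 0.128), and S100a4 (7.88 and 27.2) was the higher one. Of 24 genes of visceral and parietal endoderm, 0 were higher and 16 lower (median -1.81, sums of 3121 and 3957). Most of both sums was Sparc (708 and 1244), Apoe (637 and 1086), Serpinh1 (747 and 764) and Col4a1 (327 and 575), none past the cut-off. Afp was 45.9 and 0.422 and Apob 47.0 and 0.290. In the epithelial list 1 of 12 genes was higher (Cldn4, 76.2 and 208) and 1 lower (Ocln, 9.58 and 4.17), with a median of 0.24 and sums of 1646 and 2177. These shares, 8.33% each way, are close to the 6.73% and 8.39% of all genes, and Cdh1 was 166 and 268. Also listed at 0 were Tyrobp of myeloid cells in the Diff–iKO-labelled library and, in both libraries, Higd1b of pericytes and Synb of trophoblast. Part of the lower calls rests on genes that reached the minimum in Diff–CONT alone. With an FPKM of at least 2 in both libraries, 8 of 16 endoderm, 7 of 15 mesenchyme, 0 of 8 mural and 0 of 5 blood genes were lower. Higher under this filter were 0 endoderm, 1 mesenchyme, 2 mural and 3 blood genes. Of all genes 5.10% were lower and 4.37% higher under it, and counts of 0 in lists this short lie near that share. The part of any of these cell types in the levels of the 10 genes was not tested.

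**Figure D4:**
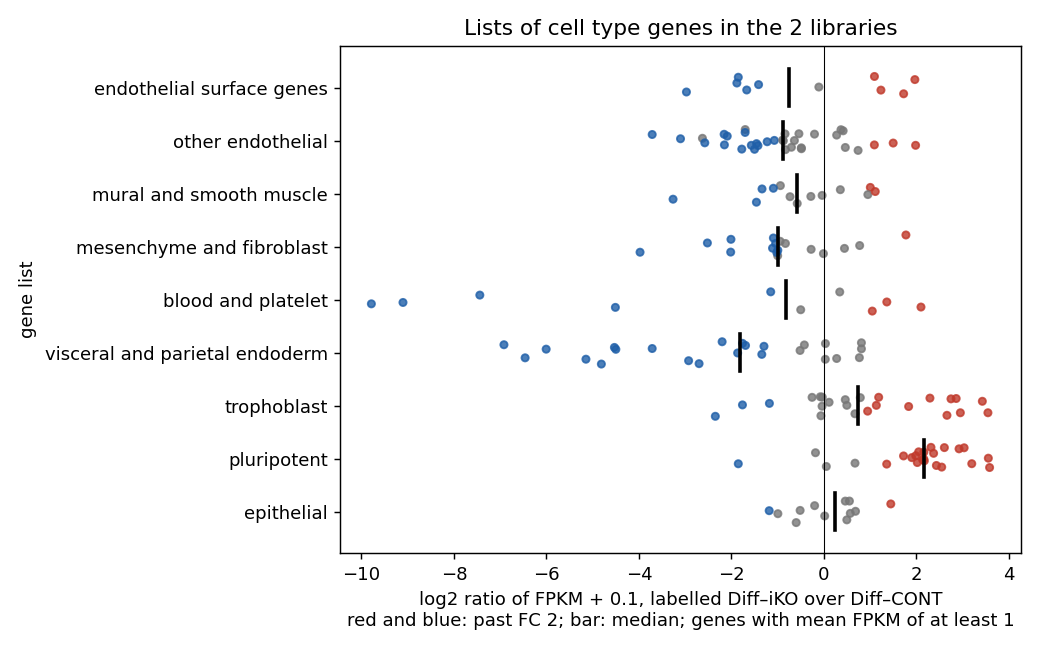
Log2 ratio of FPKM + 0.1, library labelled Diff–iKO over Diff–CONT, of each gene of 9 lists that averaged at least 1 FPKM; points are genes, red and blue points are past the cut-off, and black bars are medians. The endothelial surface genes split into a red and a blue set, the median of the other endothelial genes is -0.88, and those of the trophoblast and pluripotent lists are 0.73 and 2.16.

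Partners of the 10 proteins were looked up by role. The lists are short, and beside shares of 6.73% higher and 8.39% lower among all genes, counts of 0 or 1 in them lie near the background. Among 23 genes of the endoglin receptor complex and its targets that reached the minimum, out of 25, 0 were higher and 5 lower past the cut-off (21.7%), with a median of -0.57. Acvrl1, the receptor that acts beside endoglin, was 5.29 and 4.96 (log2 ratio -0.09, interval -0.37 to 0.18). Id1 (116.7 and 65.3), Id2 (109.9 and 65.4) and Id3 (237 and 159.5), targets of BMP signalling, were not past the cut-off, nor was Gipc1 (54.5 and 53.2), whose protein binds the tail of endoglin. The ligand genes Bmp4 (43.7 and 12.4) and Bmp2 (11.1 and 2.61) were lower. The ligand genes Gdf2 (BMP9) and Bmp10 were listed at 0 in the Diff–iKO-labelled library and had an FPKM of 0.0119 and 0.0884 in the other. Tgfbr3, which encodes betaglycan, the relative of endoglin, was 14.5 and 5.45 (log2 ratio -1.41), opposite to Eng.

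Of 8 other caveola genes that reached the minimum, 0 were past the cut-off in either direction (median 0.07, sums of 116 and 113). Cavin1, listed under its older symbol Ptrf and the coat protein of caveolae, was 40.8 and 39.0. The membrane-bending proteins of caveolae had values of 31.7 and 27.2 for Pacsin2, 13.8 and 9.48 for Pacsin3 and 15.8 and 18.2 for Ehd2. Cav2, which pairs with caveolin-1, was 2.98 and 4.62 (log2 ratio 0.63, interval 0.15 to 1.12). Among relatives of Cd34, Podxl, which encodes podocalyxin, was 228 and 36.7 (log2 ratio -2.64, interval -2.68 to -2.59), lower like Cd34 and Emcn, and Spn (CD43) was higher, with a log2 ratio of 2.29. Cd164 (132 and 173), Podxl2 (20.4 and 10.2) and Madcam1 (3.56 and 2.09) were not past the cut-off. In that list 1 of 5 genes was higher and 1 lower (median -0.74). Of 16 other junctional and immunoglobulin adhesion genes, 3 were higher and 1 lower (median -0.24). Jam2, a junctional adhesion molecule, was 9.36 and 26.7 and its relative Jam3 25.9 and 12.9, an opposite pair in the same subfamily, and Pvr was 21.9 and 47.8. The log2 ratio of Jam3 was -1.01, and its interval (-1.16 to -0.86) includes the cut-off. The most abundant of that list were Bcam (166 and 132), Pvrl2 (123 and 134) and F11r (68.6 and 74.1), none past the cut-off.

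Of 13 adhesion partners of the 10 proteins, 1 was higher and 2 lower (median 0.09). The higher one was Itgb3 (7.90 and 16.4), an integrin subunit gene, and the lower ones were Rdx (115 and 54.2), which encodes the membrane linker radixin, and the Wnt ligand gene Wnt5a (18.4 and 8.67). Lgals1 (536 and 861), Msn (107 and 193) and Ezr (112 and 101) were not past the cut-off. Ptpn11 (Shp2), which binds the tail of Pecam1, was 39.3 and 41.7, and Cd38, a reported partner of Pecam1, was 3.47 and 5.73, not past the cut-off. The genes for the subunits of LFA-1, the integrin that binds Icam2, had an FPKM under 1 in both libraries, with 0.145 and 0.603 for Itgal and 0.311 and 0.117 for Itgb2. Lama4, the laminin chain bound by Mcam, was 18.8 and 14.2. In the list of the lectin family of Cd93 and its ligands, 0 of 4 genes that reached the minimum were past the cut-off (median 0.51). Igfbp7, a ligand of Cd93, was 79.4 and 129, and its relative Cd248 was 32.0 and 45.7. Thbd (thrombomodulin), the neighbour of Cd93 on chromosome 2 and its relative, was 9.91 and 12.0 (log2 ratio 0.28, interval 0.15 to 0.41), and Mmrn2, the matrix ligand of Cd93, was 2.35 and 1.24. Several genes stand in more than 1 list, among them Sox17, Thbd, Icam1, Vcam1, Itgb3, Krt8 and Krt18.

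The nearest genes on the chromosome were looked at for each member. The nearest gene on either side with values above 0 gave 20 neighbours in all. Nearness was measured by the gap between gene bodies, overlaps included. Only 14 of the 20 reached the FPKM minimum and could be called, and 0 of these 14 were past the cut-off, against 6.73% higher and 8.39% lower among all genes. With so few genes that count is close to the background and is no result about the neighbours. Pecam1 and Icam2 lie 266 kb apart on chromosome 11, with opposite ratios of 1.73 and -3.43. Between them lie Ern1 (FPKM 4.24 and 6.60, log2 ratio 0.64) and Tex2 (7.80 and 12.7, 0.70). Eng is flanked by Ak1 (30.9 and 37.3, 0.27) and by the overlapping Fpgs, Mcam by Cbl (14.1 and 11.6, -0.27) and Rnf26 (27.7 and 18.5, -0.58), and Cav1 by Cav2 and by Met (4.16 and 5.83, 0.49). Emcn is flanked by Ppp3ca (23.1 and 21.9, -0.08) and Ddit4l (5.49 and 7.20, 0.39), and Cd34 by Plxna2 (9.74 and 7.32, -0.41). The 6 neighbours that could not be called had an FPKM under 2 in both libraries. Tmem173, beside Ecscr, had 99 and 43 fragments (log2 ratio -0.80), and the ratios of the others rest on fewer.

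**Figure D5:**
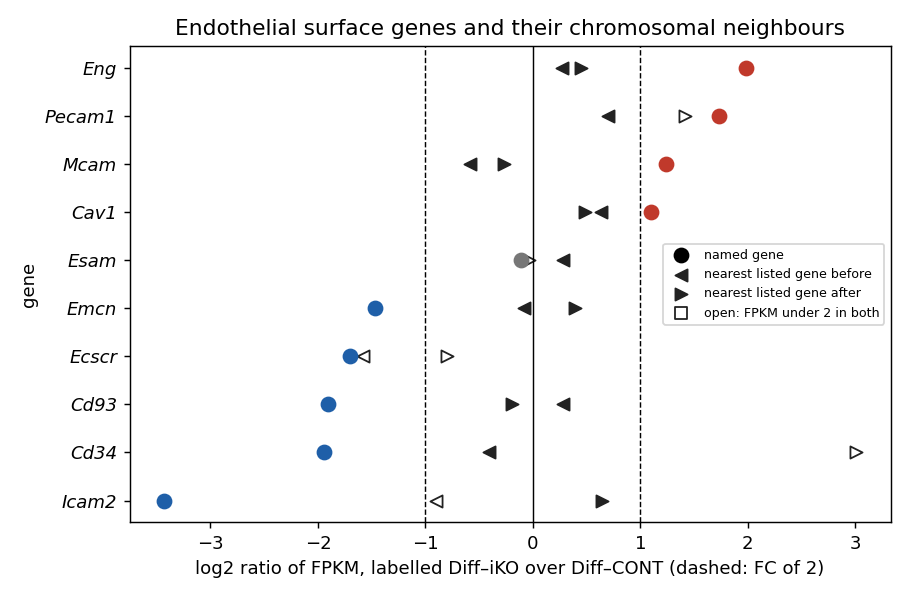
Log2 ratio of FPKM, library labelled Diff–iKO over Diff–CONT, of the 10 genes (circles) and of the nearest gene with values above 0 on each side of them, overlapping genes included (triangles, open where FPKM was under 2 in both libraries); dashed lines mark an FC of 2. Every filled triangle lies between the dashed lines.

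The genes whose pair of FPKM values lay nearest to Pecam1 and to Eng were found over the 2 libraries by distance on the log2 (FPKM + 0.1) scale, a likeness that 2 values can only describe coarsely. Nearest to Pecam1 were Jade1 (15.8 and 49.2, distance 0.14), B3gnt7 (18.3 and 51.7, distance 0.18) and Ube2a (18.3 and 56.0, distance 0.18). Nearest to Eng were Slco2a1 (7.25 and 27.7, distance 0.06), S100a4 (7.88 and 27.2, distance 0.14) and D7Ertd143e (6.59 and 31.5, distance 0.19).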

How the data were processed

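Poly(A) RNA of 1 Diff–CONT and 1 Diff–iKO culture was sequenced with 1 µg of total RNA and a stranded mRNA kit. The authors deposited FPKM values. Per the submitters' processing notes and the paper's methods, these came from STAR 2.7.9a on mm10 and Cuffquant and Cuffnorm of Cufflinks 2.2.1. The gene annotation, strand setting and depth are not given in the sources used here. The columns were matched to samples by name, and 0 other columns were present.

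The log2 ratio per gene was computed without a pseudocount, and list medians with a pseudocount of 0.1 over genes whose mean FPKM reached 1. The members and the 14 gene lists were chosen with earlier results of these data known. Named genes are the members, the 4 genes of each list with the highest FPKM and those past the cut-off (where over 4, up to 2 of the largest falls and 2 of the largest rises), the targeted gene, chromosomal neighbours and the nearest pairs of values. Cdh5, Kdr, Robo4, Hand1, Acvrl1, Tgfbr3, Ptprc, genes listed at 0 and partners outside that rule were named after their values were seen.

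Depth was recovered from FPKM steps in 13085 single-transcript genes (RefSeq, minimum length 1000 nucleotides). Of the low values (up to 6 fragments), 87.2% in Diff–CONT and 87.1% in Diff–iKO lay within 0.2 of a whole fragment, against 40% by chance. The effective length was the transcript less 180 and 190 nucleotides. The shortest RefSeq transcript set the fragments per gene, which are approximate where a gene has several. Depth limits low genes most. Genes were matched to GENCODE vM21 (GRCm38) by symbol (23315) or RefSeq synonym (650), and 389 were not matched. The fit of the steps, the cut-off and the intervals were tested on simulated counts of single-transcript genes. The printed intervals were also centred on the ratio of the deposited values. The simulation did not include that step, nor genes with several transcripts. Scripts ran in Python 3.11.15 (scipy 1.17.1, pandas 2.3.3, numpy 2.4.6), with figures drawn by matplotlib 3.10.9. The GGAA core was counted after the data were seen. The alternatives were other pseudocounts, filters, scalings and FC minimums.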

Additional observations from a re-analysis of the deposited data

How the results depend on the processing

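No paired analysis was possible because each condition had 1 library, and no library could be left out. Filters on FPKM do not act on the ratio of a single gene, so they give no other value there. With a pseudocount of 1, the log2 ratio was 1.85 for Eng, -1.48 for Cd34, -1.51 for Icam2, -1.45 for Cd93, and the median of the pluripotent list 2.04. With each library scaled to the same sum of FPKM, which shifts all ratios by -0.09, Pecam1 was 1.64 and Mcam 1.14, and the same 4 genes stayed higher past the cut-off, Cav1 at 1.01. With an FPKM of at least 5 in 1 library, 3 of the 10 genes were lower past the cut-off (6.54% of all genes), and with at least 2 in both libraries 1 was (5.10%). For the medians (there a mean FPKM of 5 or more, or 2 or more in both libraries) the filters keep 5 and 6 of the 10 genes, mostly higher ones, which turned it from -0.76 to 1.24 and 1.17. The median of the other endothelial genes became -0.34 over 10 genes and -0.49 over 13 genes, and with the second filter that of the trophoblast list 0.29 over 14 genes. With an FC of at least 4, 0 of the 10 genes were higher (2.25% of all genes) and 1, Icam2, was lower (1.92%). No symbol occurs 2 times in the table, so summing rows changed nothing. Depth limits Icam2 most, with 6 fragments in the Diff–iKO-labelled library.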
